A study of Mus musculus with 72 samples.

Results

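The Cyp4a genes of the mouse encode cytochrome P450 enzymes that hydroxylate fatty acids. The 6 described here are Cyp4a10, Cyp4a14, Cyp4a12a, Cyp4a12b, Cyp4a31 and Cyp4a32. They were taken by symbol from a deposited table of 27846 genes, all 6 were found there, and all 6 passed the filter on low counts that left 15066 genes for testing. Their RNA was measured by poly(A) selected, stranded sequencing of whole liver from wild type C57bl6 mice. All mice were 8 to 16 weeks old, were housed under 12 h of light and 12 h of dark, and ate standard chow before the study and a diet with 42% of its calories from fat from week 1 of it onwards. Females and males were either controls or under chronic circadian misalignment, and the labels give no schedule for it. Collection was at clock times of 0, 4, 8, 12, 16 and 20 h, with 3 mice for each combination of sex, treatment and time. That gives 72 livers in 24 groups, or 18 livers per sex and treatment, and the control and misaligned mice shared the strain, the age range and the fat-rich diet.

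CYP4A enzymes add a hydroxyl group at or next to the methyl end of a fatty acid, the step that opens omega oxidation. The acid is then oxidised further to a dicarboxylic acid, which peroxisomes can shorten. Cyp4a10 and Cyp4a14 are classical targets of the nuclear receptor PPAR alpha, which responds to fatty acids and to fasting. The Cyp4a12 genes are known as male-biased genes of mouse liver and kidney, and their enzymes also hydroxylate arachidonic acid. Cyp4a31 and Cyp4a32 are close relatives of Cyp4a10, and less is known of them.

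The libraries were of nearly equal size, from 11551524 to 12529963 gene counts, and levels are given as CPM, the counts of a gene scaled to a common library total. The markers fixed for hepatocytes were abundant in every liver, with a summed level of 66507 to 132243 CPM, while those of cholangiocytes summed to at most 23.5 CPM and those of lymphocytes to at most 17.9 CPM. In bulk liver, fewer cells of a type and less RNA per cell cannot be told apart. The p-values measure the spread between livers that the series' design text calls biological replicates.

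The 6 genes lie together on chromosome 4 of the mouse genome build GRCm38. In order along the chromosome they are Cyp4a12a (ENSMUSG00000066071, chr4:115299046-115332815), Cyp4a12b (ENSMUSG00000078597, chr4:115411624-115439034), Cyp4a14 (ENSMUSG00000028715, chr4:115486200-115496142), Cyp4a10 (ENSMUSG00000066072, chr4:115518264-115533649), Cyp4a31 (ENSMUSG00000028712, chr4:115563649-115579015) and Cyp4a32 (ENSMUSG00000063929, chr4:115600969-115621602). Cyp4a14 is on the minus strand and the other 5 are on the plus strand. The coding sequences of Cyp4a12a and Cyp4a12b were 98.49% identical, with 23 mismatches. Cyp4a10 was 97.19% identical to Cyp4a32 and 96.60% to Cyp4a31. Cyp4a14 stood apart, at 75.1 to 76.2% identity to the other 5. Likeness at this level bears on counting, because a read of 150 bases may match more than 1 of the genes. Of the stretches of 150 bases in the transcript, 25.6% for Cyp4a12a, 25.9% for Cyp4a12b, 7.97% for Cyp4a32, 4.34% for Cyp4a10 and 4.20% for Cyp4a31 occurred unchanged in another member, against 0 for Cyp4a14. The transcript model of Cyp4a32 holds coding bases alone, whereas the other models also hold noncoding ends, so its share has a smaller base.

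The closest pair can still be separated by exon 6, which lies in the coding sequence and holds 8 of the 23 mismatches. It is shown for Cyp4a12a (chr4:115326628-115326782) and Cyp4a12b (chr4:115432881-115433035), both on the plus strand of GRCm38, 5′ to 3′. Capitals mark the bases at which the pair differs, which are G41A, G47T, T53C, C54T, A116T, A117T, T121C and A134C, with the base of Cyp4a12a written before the position, the base of Cyp4a12b after it, and positions counted from 1 at the 5′ end of the exon.
Cyp4a12a exon 6: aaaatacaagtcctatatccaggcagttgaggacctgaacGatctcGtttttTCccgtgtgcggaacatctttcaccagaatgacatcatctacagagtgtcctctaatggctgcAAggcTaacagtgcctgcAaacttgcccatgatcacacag
Cyp4a12b exon 6: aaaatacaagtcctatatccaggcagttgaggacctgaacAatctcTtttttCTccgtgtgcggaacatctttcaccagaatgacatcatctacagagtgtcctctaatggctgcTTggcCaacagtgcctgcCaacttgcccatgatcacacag

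Cyp4a10 and Cyp4a14 had the highest mean levels of the members in either sex. Per kilobase of transcript, the level in control females was 479 ± 148 CPM per kb for Cyp4a10 and 457 ± 160 for Cyp4a14 (SD, n = 18), with overlapping ranges of 1 SD. The members were read in the same livers and some vary together, so an overlap of such ranges cannot show equal levels. Differences between members were not tested. Cyp4a32 followed at 9.18 ± 2.77 and Cyp4a31 at 4.78 ± 1.34 CPM per kb, and both Cyp4a12 genes were close to 0. In control males the order was Cyp4a10 at 266 ± 132, Cyp4a14 at 182 ± 136, Cyp4a12a at 82.4 ± 25.9, Cyp4a12b at 29.6 ± 21.3, Cyp4a32 at 12.9 ± 3.14 and Cyp4a31 at 3.71 ± 1.01 CPM per kb. Between neighbours in that order, the ranges of 1 SD around the mean overlapped for Cyp4a10 and Cyp4a14, for Cyp4a14 and Cyp4a12a, and for Cyp4a12b and Cyp4a32. Misaligned mice had the same order within each sex except that Cyp4a14, at 504 ± 142 CPM per kb, was above Cyp4a10, at 438 ± 102, in females, again with overlapping ranges of 1 SD. Levels of Cyp4a31 and Cyp4a32 differed between the deposited count tables, as described further on.

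**Figure D1:**
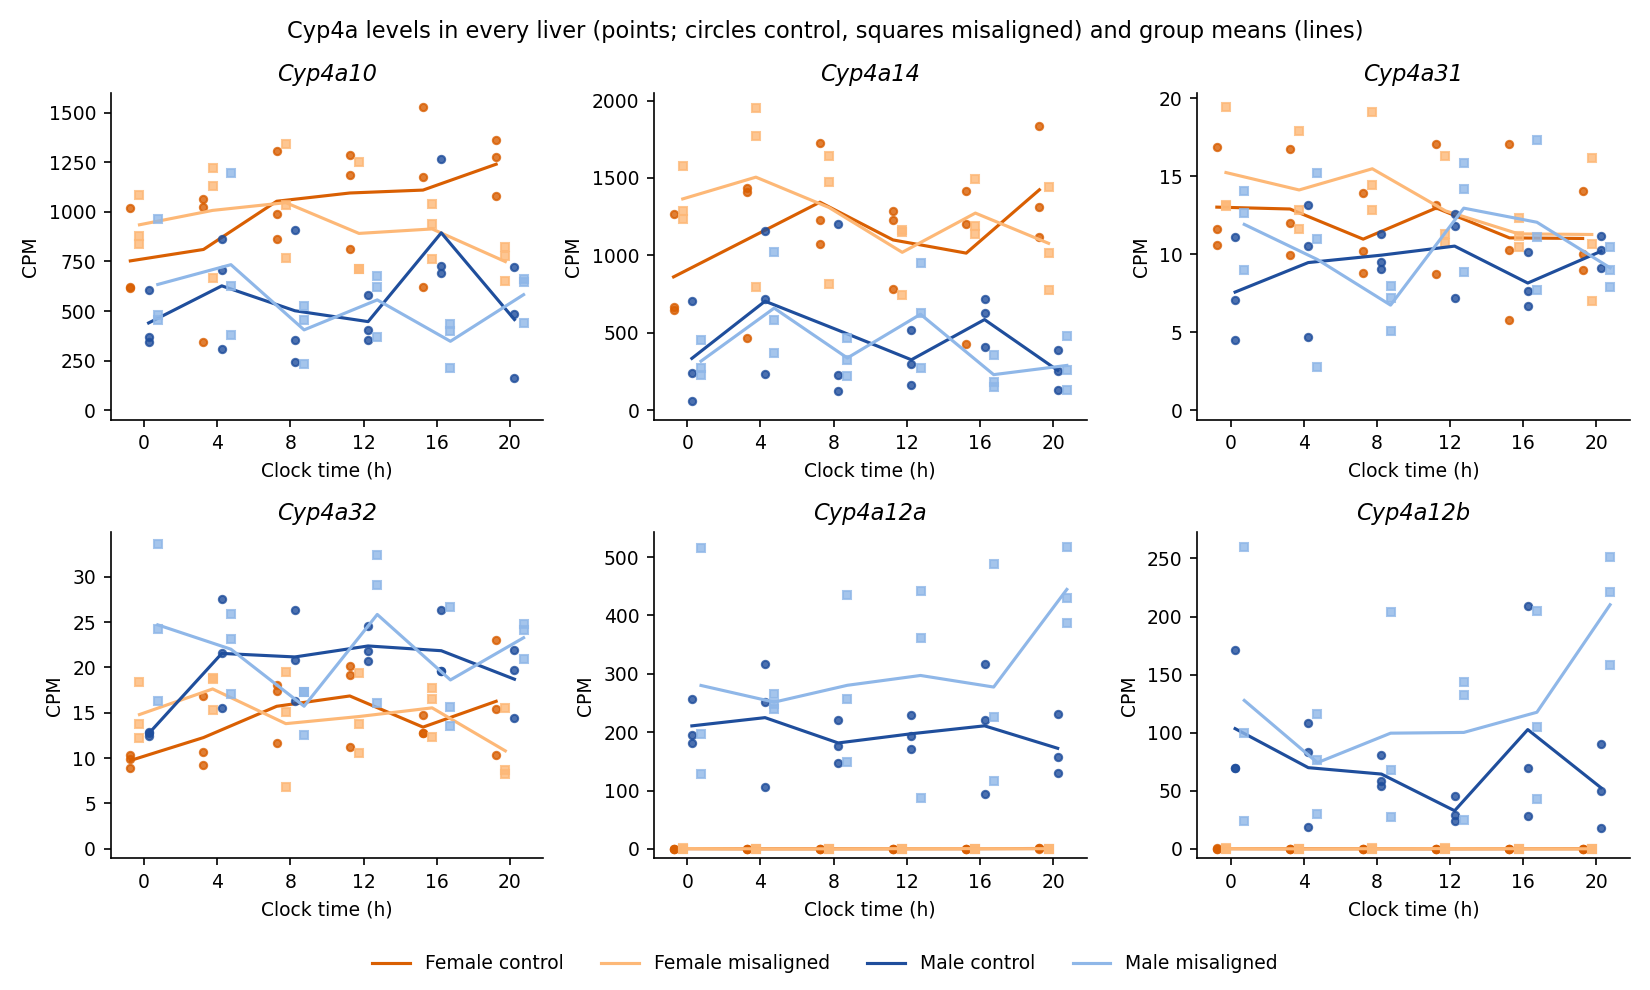
Level of each Cyp4a gene in CPM (vertical axes, linear, separate for each gene) at the 6 clock times in hours (horizontal axes). Points are single livers, circles for controls and squares for misaligned mice, and lines join the means of 3 livers. Female livers sit higher for Cyp4a10 and Cyp4a14, whereas Cyp4a12a and Cyp4a12b sit at about 0 CPM in females and between 17.8 and 517 CPM in males.

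The sex comparison asks how the members differ between female and male liver within a treatment. In controls 5 of the 6 members were called at an adjusted p of 0.05 (edgeR quasi-likelihood test with Benjamini-Hochberg adjustment), against a background of 32.2% of all 15066 genes. In misaligned mice all 6 were called, against a background of 37.3%. Cyp4a10 and Cyp4a14 were higher in females, Cyp4a12a, Cyp4a12b and Cyp4a32 were higher in males, and Cyp4a31 was higher in females at the edge of the threshold.

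Cyp4a10, a PPAR alpha target, ranged in control females from 344 to 1530 CPM with a median of 1044, and in control males from 163 to 1266 CPM with a median of 535. In misaligned mice the range was 651 to 1341 CPM with a median of 860 in females and 210 to 1195 CPM with a median of 468 in males. The sexes overlapped. Of 18 control females 5 lay above the highest male, and 3 of 18 control males lay below the lowest female. The mean was 1011 ± 313 CPM in control females and 561 ± 279 CPM in control males (SD, n = 18). Averaged over clock times, the log2 difference of female less male was 0.88 ± 0.18 (SE) in controls, with an adjusted p of 1.6e-04 by edgeR, and 0.81 ± 0.18 in misaligned mice, with an adjusted p of 4.0e-04. Females had the higher mean at 6 of 6 clock times under either treatment.

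Cyp4a14, the other PPAR alpha target, showed a wider gap. Control females ranged from 429 to 1839 CPM with a median of 1229, and control males from 58.1 to 1202 CPM with a median of 342. Misaligned females ranged from 743 to 1951 CPM with a median of 1212, and misaligned males from 131 to 1022 CPM with a median of 342. Of the 18 females 10 lay above the highest male in controls and 13 in misaligned mice, and the rest overlapped with males. The log2 difference of female less male was 1.40 ± 0.26 in controls, with an adjusted p of 3.2e-05 by edgeR, and 1.73 ± 0.27 in misaligned mice, with an adjusted p of 6.7e-07. As a ratio of mean CPM, Cyp4a14 was 2.52-fold higher in control females and 3.08-fold higher in misaligned females. The mean was higher in females at 6 of 6 clock times under both treatments. In control males the spread between livers was large for its mean, at 453 ± 340 CPM, and at 8 h the 3 control males held 225, 1202 and 122 CPM.

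Cyp4a12a, an arachidonic acid hydroxylase, was read in males and was close to absent from the reads of females. In control males it ranged from 94.4 to 317 CPM with a median of 194, and in misaligned males from 87.8 to 517 CPM with a median of 262. In control females the libraries held 0 to 8 counts each, 44 in all, and 6 of the 18 had none. In misaligned females they held 0 to 14 counts, 56 in all, and 3 of the 18 had none. The sexes did not overlap. Pooled over livers, 43237 counts in control males stood against 44 in control females, a ratio of 983 (95% exact interval 732 to 1353), and the ratio was 1140 (878 to 1510) in misaligned mice. These intervals cover counting error only. By edgeR the adjusted p was 1.19e-30 in controls and 1.57e-31 in misaligned mice.

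Cyp4a12b, its near copy, ranged from 17.8 to 209 CPM with a median of 63.8 in control males and from 23.8 to 260 CPM with a median of 111 in misaligned males. Control females held 0 to 5 counts per library, 13 in all, and 11 of the 18 had none. Misaligned females held 0 to 6 counts, 23 in all, and 8 of the 18 had none. Again no female liver reached the lowest male. The pooled male to female ratio was 1156 (676 to 2172) in controls and 1095 (730 to 1728) in misaligned mice, and the adjusted p by edgeR was 2.54e-19 and 1.23e-20. Cyp4a12b varied more between males than its neighbour did. In control males the standard deviation was 50.9 CPM around a mean of 71.0 for Cyp4a12b and 62.8 CPM around 200 for Cyp4a12a.

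How the male signal was divided between the pair depended on what was counted. The deposited tables come in a version named MIN, used for all values above, and a version named MAX, whose summed counts for the members are higher. The names are those of the PORT pipeline, in which MAX also holds reads that could belong to more than 1 feature, though the labels do not describe the rule. In control males Cyp4a12a made up 76.0 ± 8.2% of the summed Cyp4a12a and Cyp4a12b counts in the MIN table, 67.7 ± 5.4% in the MAX table and 47.1 ± 5.7% of the summed intron counts (SD, n = 18). Exon 1, whose coding part is identical in the pair, held 1.61 ± 1.29 Cyp4a12a counts per control male in MIN and a mean of 309 in MAX. For Cyp4a12b exon 1 held 80.4 ± 26.0 in MIN and a mean of 567 in MAX. Exon 11, also identical, lost less, with 101 ± 32.9 Cyp4a12a counts in MIN and a mean of 345 in MAX. Exon 6, the exon shown above with 8 differences, held 464 ± 134 in MIN and a mean of 468 in MAX for Cyp4a12a, and 208 ± 124 and 212 for Cyp4a12b. The male bias itself was called in the MIN and MAX versions of both gene and intron counts. The MAX gene table gave adjusted p of 8.9e-31 for Cyp4a12a and 4.4e-26 for Cyp4a12b by edgeR.

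Cyp4a31 ranged from 5.81 to 17.1 CPM with a median of 11.1 in control females and from 4.52 to 13.2 CPM with a median of 9.81 in control males. Misaligned females ranged from 6.97 to 19.5 CPM and misaligned males from 2.80 to 17.3 CPM. The sexes overlapped widely, with 6 of 18 control females above the highest male. The log2 difference of female less male was 0.37 ± 0.15 in controls and did not pass, with an adjusted p of 0.060 by edgeR. It was 0.38 ± 0.15 in misaligned mice and passed, with an adjusted p of 0.044. Both calls were at the margin. Leaving out single libraries moved the adjusted p between 0.028 and 0.139 in controls, where 8 of 72 such fits called the gene, and between 0.013 and 0.096 in misaligned mice, where 58 of 72 did. The 14 livers whose removal ended that call were the misaligned females of 0, 4 and 12 h replicate 3 and of 8, 16 and 20 h replicate 1, and the misaligned males of 0 and 8 h replicate 2, of 4 and 12 h replicate 1, and of 16 and 20 h replicates 1 and 3. The 8 livers whose removal let the gene pass in controls were the control females of 4 and 16 h replicate 1 and of 12 h replicate 3, the control males of 0 h replicate 2, 4 h replicate 3 and 16 h replicate 1, and the misaligned males of 4 h replicates 1 and 3. In misaligned mice the difference of Cyp4a31 was 0.22 without 8 h (adjusted p 0.36 by edgeR) and 0.21 without replicate 1 (adjusted p 0.41).

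Cyp4a32 went the other way in the MIN table. Control females ranged from 8.92 to 23.1 CPM with a median of 12.8 and control males from 12.5 to 27.6 CPM with a median of 20.2. Misaligned females ranged from 6.87 to 19.5 CPM and misaligned males from 12.6 to 33.6 CPM. Groups overlapped, though 8 of 18 control females lay below the lowest male. The log2 difference of female less male was -0.49 ± 0.12 in controls, with an adjusted p of 0.0017 by edgeR, and -0.57 ± 0.12 in misaligned mice, with an adjusted p of 2.0e-04. Males had the higher mean at 6 of 6 clock times under both treatments.

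That direction for Cyp4a32 held in MIN gene counts and turned in the MAX table. With MAX counts its difference was 0.25 ± 0.13 in controls (adjusted p 0.118 by edgeR), higher in females, and 0.13 in misaligned mice (adjusted p 0.445). MAX counts summed over female libraries were 2.68 times the MIN counts for Cyp4a32 and over male libraries 1.62 times. For Cyp4a31 the same ratios were 2.08 and 1.71, and its control difference rose from 0.37 to 0.64 ± 0.13 (adjusted p 1.6e-04). Cyp4a10 and Cyp4a14 barely depended on the table, with MAX to MIN ratios of 1.06 and 1.00 in females, and their control differences with MAX were 0.88 ± 0.18 and 1.40 ± 0.26. The levels of Cyp4a31 and Cyp4a32 and the sex difference of Cyp4a32 are therefore uncertain, and the part of reads shared with other members was not tested.

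**Figure D2:**
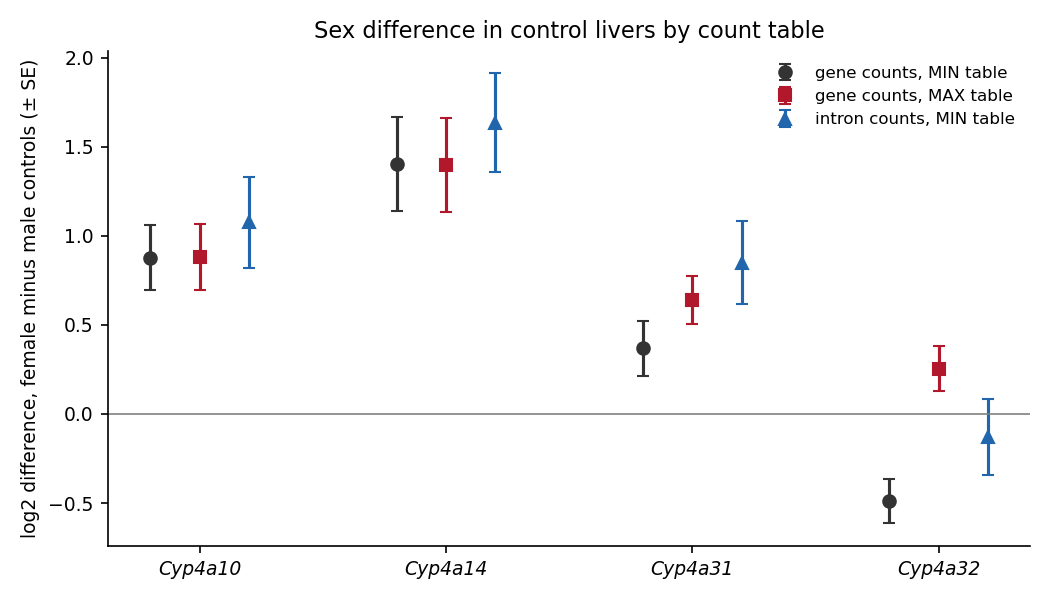
Log2 difference of female less male in control livers (vertical axis, with bars of 1 SE) for 4 members (horizontal axis), from the MIN gene counts (circles), the MAX gene counts (squares) and the MIN intron counts (triangles). Cyp4a10, Cyp4a14 and Cyp4a31 are above 0 in all 3 tables, whereas Cyp4a32 is at -0.49 in MIN gene counts and at 0.25 in MAX gene counts.

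Exon by exon, Cyp4a32 showed both directions. Exon 8 differs from that of Cyp4a10 at 1 of 191 bases, and exon 2 at 13 of 145. They are shown, together with the same exons of Cyp4a31, because exon 8 gave the largest female excess of the Cyp4a32 exons and exon 2 holds the most mismatches. All are coding, on the plus strand of GRCm38 and written 5′ to 3′, with capitals at each base where any of the 3 genes differs from another. Exon 8 lies at chr4:115525498-115525688 in Cyp4a10, chr4:115570958-115571148 in Cyp4a31 and chr4:115611217-115611407 in Cyp4a32. Against Cyp4a10, Cyp4a32 carries T129G alone, and Cyp4a31 carries G11A, A36T, T61A, T129G, C162T and C165A, with positions counted from 1 at the 5′ end of the exon and the base of Cyp4a10 written before the position.
Cyp4a10 exon 8: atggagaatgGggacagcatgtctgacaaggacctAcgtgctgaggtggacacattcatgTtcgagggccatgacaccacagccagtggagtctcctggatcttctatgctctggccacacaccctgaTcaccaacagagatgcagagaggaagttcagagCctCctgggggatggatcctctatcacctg
Cyp4a31 exon 8: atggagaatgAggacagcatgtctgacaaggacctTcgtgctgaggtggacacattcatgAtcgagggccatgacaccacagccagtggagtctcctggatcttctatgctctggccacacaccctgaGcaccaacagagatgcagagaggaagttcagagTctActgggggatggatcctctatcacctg
Cyp4a32 exon 8: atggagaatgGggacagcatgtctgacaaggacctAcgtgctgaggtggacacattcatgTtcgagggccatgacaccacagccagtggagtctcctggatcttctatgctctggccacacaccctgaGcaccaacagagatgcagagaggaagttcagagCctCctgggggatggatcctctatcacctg

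Exon 2 lies at chr4:115519630-115519774 in Cyp4a10, chr4:115565010-115565154 in Cyp4a31 and chr4:115602260-115602404 in Cyp4a32. Cyp4a31 carries A1C, G39A, A70C and A84G against Cyp4a10, and the 13 changes of Cyp4a32 are A1C, T12C, C15A, C25A, A31G, G39A, C42T, A49C, C63T, A70T, A72C, A84G and G90C, counted in the same way.
Cyp4a10 exon 2: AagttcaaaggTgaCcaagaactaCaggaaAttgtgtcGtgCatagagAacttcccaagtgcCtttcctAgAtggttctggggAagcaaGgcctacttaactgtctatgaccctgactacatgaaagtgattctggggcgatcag
Cyp4a31 exon 2: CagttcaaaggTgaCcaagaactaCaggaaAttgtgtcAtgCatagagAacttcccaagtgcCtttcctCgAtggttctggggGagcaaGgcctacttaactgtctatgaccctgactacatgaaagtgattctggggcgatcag
Cyp4a32 exon 2: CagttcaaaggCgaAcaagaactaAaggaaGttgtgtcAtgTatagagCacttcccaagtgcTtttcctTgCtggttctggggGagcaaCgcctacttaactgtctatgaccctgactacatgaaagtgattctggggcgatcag

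On exon 8 of Cyp4a32, the exon nearly identical to that of Cyp4a10, the MIN exon table held 544 ± 139 counts per control female and 341 ± 130 per control male (SD, n = 18), higher in females by 0.67 on the log2 scale. On exon 2, the exon with 13 mismatches, it held 31.7 ± 12.9 counts in females and 45.1 ± 13.7 in males, a log2 difference of -0.50. Exon 12, with 7 mismatches, gave -0.67, and exon 5, with 6, gave -0.32. Mismatches were counted over coding bases alone, whereas the counts of the first and last exons also cover noncoding bases. Of the 8 Cyp4a32 exons with 3 or fewer mismatches, 7 were higher in females, with a median log2 difference of 0.36. The exception was exon 11, which is identical to that of Cyp4a10 and gave -0.28. Exon 1, with 4 mismatches, gave 0.39. In the MIN exon table all 3 exons with 5 or more were lower in females, with a median of -0.50. Cyp4a10 itself held 2035 ± 566 counts on its exon 8 in control females and 1139 ± 501 in control males. All 12 exons of Cyp4a31 were higher in females, by 0.22 to 0.77. The direction of exons 11 and 12 of Cyp4a32 depended on the table. With MAX exon counts, control livers held a mean of 269 on exon 12 for females against 200 for males. On exon 11 the MAX means were 305 against 229, so both exons turned to higher in females. Exons 2 and 5 stayed lower in females with MAX, at 32.7 against 46.3 and at 51.7 against 64.2. A median of 151.5 gene counts per control female for Cyp4a32 is below the mean of its exon 8 alone, so the gene and exon tables did not assign the same reads. These exon values are raw counts chosen after the reversal was seen and were not tested.

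**Figure D3:**
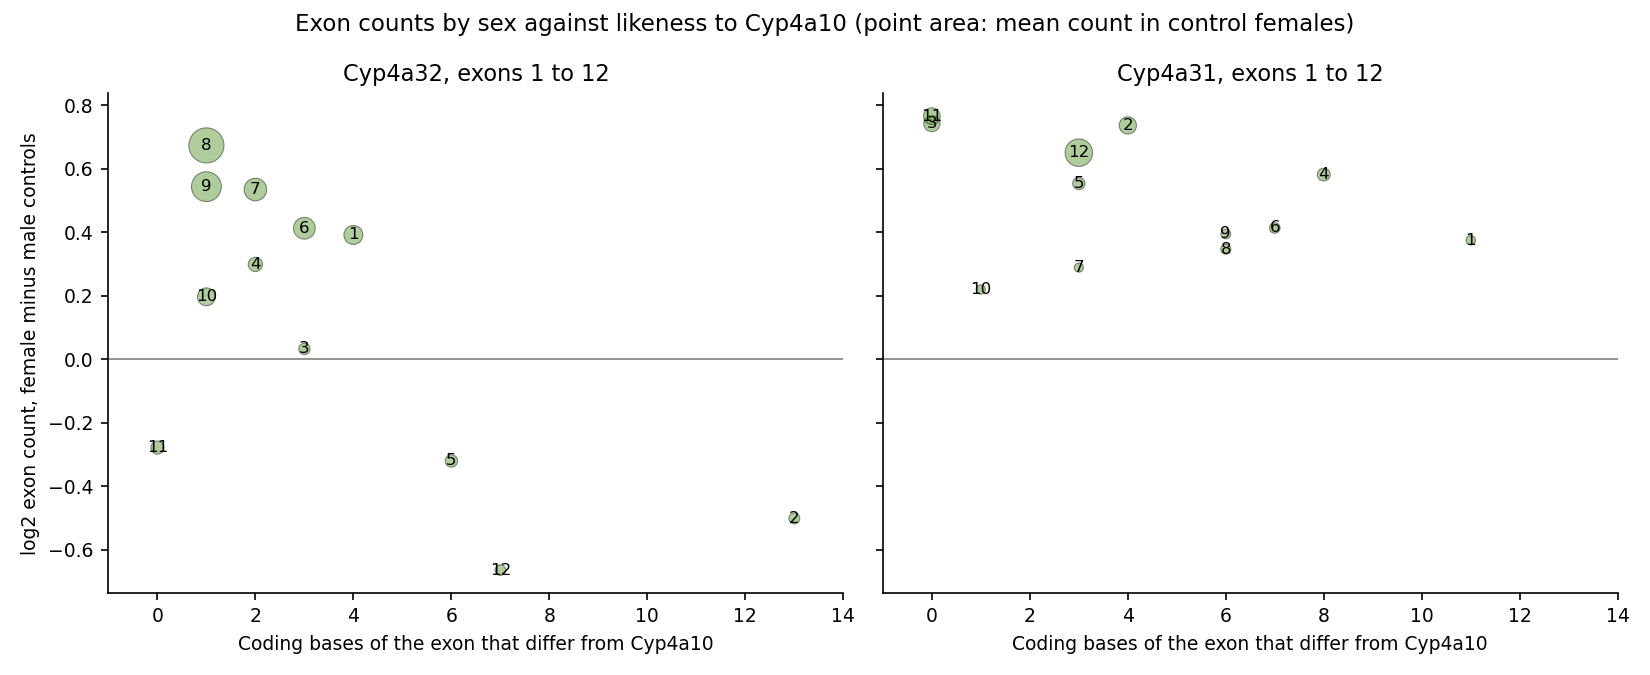
Log2 difference of female less male in control livers for each exon of Cyp4a31 and Cyp4a32 (vertical axis, MIN exon counts) against the number of coding bases at which the exon differs from Cyp4a10 (horizontal axis). Points are numbered by exon, and their area grows with the mean count in control females. Counts of exons 1 and 12 also cover noncoding bases, which the mismatches leave out. Cyp4a32 exons lie between 0.67 (exon 8, 1 mismatch) and -0.67 (exon 12, 7 mismatches), with exon 11 at -0.28 with 0 mismatches and exon 2 at -0.50 with 13, while Cyp4a31 exons are all above 0. With MAX exon counts, which are not drawn, exons 11 and 12 of Cyp4a32 were higher in females.

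Intron reads, which come mostly from unspliced RNA, gave a second view of the sex difference. In sense intron counts 5 of the 6 members were called in controls, against a background of 13.9% of 11293 genes. The log2 difference of female less male was 1.08 ± 0.26 for Cyp4a10 (adjusted p 0.0019 by edgeR), 1.63 ± 0.28 for Cyp4a14 (adjusted p 1.4e-05) and 0.85 ± 0.23 for Cyp4a31 (adjusted p 0.0073). Cyp4a32 was not called, at -0.13 ± 0.22 (adjusted p 0.77), and was at 0.02 with MAX intron counts. Over the 18 control females the introns of Cyp4a12a held 1 count and those of Cyp4a12b 3 counts, against 1188 and 1384 in the 18 control males.

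Some cell type markers differed between the sexes, beside the 32.2% of all genes called in controls. The summed level of the 6 hepatocyte markers ran from 83831 to 117219 CPM in control females and from 67519 to 107132 CPM in control males, with 2 of 6 called higher in females. That of the 5 Kupffer cell and macrophage markers ran from 241 to 1031 CPM in females and from 150 to 394 CPM in males, with 3 of 5 higher. The 5 stellate cell and fibroblast markers ran from 312 to 586 CPM in females and from 332 to 1464 CPM in males, with 3 of 5 lower in females. The 5 blood cell markers ran from 90.3 to 831 CPM in females and from 140 to 553 CPM in males, with 4 of 5 higher and 1 lower. Of 4 endothelial markers 2 were higher, of 4 cholangiocyte markers 1 was lower, and of 4 lymphocyte markers 1 was higher in females. Their part in the sex differences of the Cyp4a genes was not tested.

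Misalignment, averaged over clock times, changed no member past the threshold in either sex. By edgeR 0 of 6 were called in females, against a background of 0.00664%, and 0 of 6 in males, against 0%, and limma-voom and DESeq2 also called 0. At an unadjusted p under 0.05 there were 0 members in females and 2 in males, among 957 and 887 of all genes. The sex difference of the effect was called for 0 of 6 members, background 0%, with 0 members and 825 genes at an unadjusted p under 0.05 by edgeR and 0 called by limma-voom and DESeq2. For Cyp4a12a and Cyp4a12b, with female counts near 0, the SE of this difference was 0.86 and 1967 on the log2 scale. For these genes the test in females and the test between the sexes could therefore not decide, though the counts of 0 of 6 include them.

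The pair of members with a low unadjusted p in males was Cyp4a12a and Cyp4a12b. Cyp4a12a averaged 200 ± 62.8 CPM in the males kept as controls and 305 ± 144 CPM in those under misalignment (SD, n = 18), and the groups overlapped. Its log2 difference of misaligned less control was 0.59 ± 0.18, unadjusted p 0.0023, adjusted p 0.82 by edgeR. Cyp4a12b averaged 71.0 ± 50.9 and 122 ± 80.3 CPM, with a log2 difference of 0.80 ± 0.28, unadjusted p 0.0058 and adjusted p 0.82. The mean of log2 CPM was higher in misaligned males at 6 of 6 clock times for Cyp4a12a and at 5 of 6 for Cyp4a12b.

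At 20 h the male livers of the groups did not overlap for either gene, but neither did they for 33.2% of all genes tested, so 2 of 6 members is near the background. Cyp4a12a stood at 129, 230 and 157 CPM in the 3 control males and at 387, 430 and 517 CPM in the 3 misaligned males, and Cyp4a12b at 17.8, 89.9 and 50.2 CPM against 221, 158 and 251 CPM. This clock time was singled out after its values were seen. Averaged over clock times, intron counts gave log2 differences of misaligned less control males of 0.66 ± 0.21 for Cyp4a12a and 0.73 ± 0.26 for Cyp4a12b, both with an adjusted p of 0.90 by edgeR. In females these genes had too few counts for a comparison of treatments.

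None of the other members passed the threshold between treatments, which does not show that differences are absent. Averages can hide opposite differences. The male difference of Cyp4a14 ran from -1.42 to 0.91 over the clock times and was below 0 at 1 of 6. Its variation over clock times was not called, however, with an adjusted p of 0.46 by edgeR. The values that follow are averaged over clock times. Cyp4a14 gave log2 differences of 0.15 ± 0.26 in females and -0.17 ± 0.26 in males, and the sign in males turned with limma-voom, at 0.025, and without single control males, at 0.02 without replicate 2 of 0 h and 0.09 without replicate 2 of 8 h. Cyp4a10 gave -0.11 ± 0.18 in females and -0.04 ± 0.18 in males. Cyp4a31 gave 0.15 ± 0.15 and 0.14 ± 0.15, and Cyp4a32 gave 0.06 ± 0.13 and 0.14 ± 0.12.

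Whether the effect of misalignment varied with clock time was tested next. By edgeR 0 of 6 members were called in females, background 0.0199%, and 0 of 6 in males, where 8.25% of all genes were called. In females the counts of the Cyp4a12 genes were too near 0 for this test to decide. In females 0 members and in males 2 members had an unadjusted p under 0.05, and limma-voom called 0 in each. They were Cyp4a32, unadjusted p 0.039 and adjusted p 0.17, and Cyp4a10, unadjusted p 0.046 and adjusted p 0.19. For Cyp4a10 the male difference of misaligned less control ran from -1.38 to 0.57 on the log2 scale over the clock times. At 16 h, singled out after its values were seen, the control males stood at 729, 690 and 1266 CPM and the misaligned males at 210, 398 and 433 CPM, without overlap. Cyp4a14 did not overlap there either, at 410, 719 and 625 CPM against 151, 357 and 179 CPM, and among all genes tested 13.3% did not overlap between these males at 16 h.

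Daily rhythms were read as cosine curves with a period of 24 h. No member was called rhythmic by edgeR, though the Cyp4a12 genes had too few counts in females for a rhythm to be read. The count was 0 of 6 in control females (background 11.4%), misaligned females (7.23%), control males (10.0%) and misaligned males (0%). The change of rhythm with misalignment was called for 0 of 6 in females (background 0.159%) and 0 of 6 in males (8.77%), its sex difference for 0 of 6 (1.60%) and the sex difference of rhythm in controls for 0 of 6 (0%). In these 8 tests 0 members had an unadjusted p under 0.05, and limma-voom called 0 in each. Where it called no gene at all, edgeR had 1123 genes in misaligned males and 678 for the sex difference in controls at an unadjusted p under 0.05.

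The fitted curves give the size that the data allow. Amplitudes, from mean to peak on the log2 scale, were 0.29 ± 0.18 (SE) for Cyp4a10 and 0.07 ± 0.26 for Cyp4a14 in control females, and 0.19 ± 0.18 and 0.36 ± 0.26 in control males. Cyp4a32 had the smallest p among control males, with an amplitude of 0.29 ± 0.13, a peak at 11.3 h and an adjusted p of 0.33. Its lowest mean in control males was 12.7 ± 0.21 CPM at 0 h, and the other 5 clock times had means of 18.7 to 22.4 CPM. In control females its lowest mean was also at 0 h, at 9.74 ± 0.75 CPM, against 16.9 ± 4.92 CPM at 12 h. The rhythm was not called there either, with an adjusted p of 0.37 by edgeR. These 0 h values of Cyp4a32 were singled out after they were seen and rest on its uncertain MIN counts. In misaligned males the largest amplitude was that of Cyp4a14, at 0.58 ± 0.26 with an adjusted p of 0.78. In control females the few Cyp4a12a counts were 5 to 8 per library at 20 h and 0 to 6 at the other clock times, and the rhythm test gave an unadjusted p of 0.070 and an adjusted p of 0.24.

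Livers of the same sex, treatment and clock time still differed from each other, and some members varied together. After the mean of each group was removed, 9 of the 15 pairs of members were correlated over the 72 livers at an adjusted p of 0.05 (permutation test within groups, 2-sided, Benjamini-Hochberg over 15 pairs). Deviations of the Cyp4a12 genes in females rest on counts near 0, and not every pair held within a sex. For Cyp4a10 with Cyp4a12a the adjusted permutation p was 0.040 over all livers, 0.14 in females and 0.23 in males. Cyp4a10 and Cyp4a14 had a Pearson r of 0.76 and a Spearman rho of 0.75, both with an unadjusted permutation p of 1e-05, the smallest that 100000 permutations can give, and an adjusted p of 7.5e-05 for r and 1e-04 for rho. The r was 0.89 in the 36 female and 0.71 in the 36 male livers alone, and 0.75 over all livers without the 2 farthest from the median.

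Cyp4a12a and Cyp4a12b had an r of 0.85 and a rho of 0.83 in the 36 male livers (permutation p 3e-05 and 1e-05, adjusted p 3e-04 and 1.5e-04), and an r of 0.82 without the 2 farthest males. In females, where counts were near 0, it was not called, at r = 0.47 and an adjusted p of 0.14 by permutation. Neither Cyp4a12 gene followed Cyp4a14, the r over all livers being 0.12 for Cyp4a12a and -0.06 for Cyp4a12b, with adjusted permutation p of 0.38 and 0.73. With Cyp4a32 the r over all livers was 0.47 and 0.44 (adjusted permutation p 0.0033 and 0.0062). In males alone it was 0.67 and 0.61 (adjusted permutation p 0.015 and 0.016). Without the 2 farthest males the adjusted permutation p was 0.079 for each, and in females alone neither pair was called (0.14 and 0.24).

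Cyp4a32 followed Cyp4a10, with an r of 0.57 and a rho of 0.64 (permutation p 2e-05 for each, adjusted p 1e-04), and an r of 0.57 without the 2 farthest livers. Cyp4a31 followed Cyp4a14, with an r of 0.51 and a rho of 0.52 (permutation p 1.1e-04 and 1.6e-04, adjusted p 4.1e-04 and 6.0e-04), and 0.50 without the 2 farthest. For this pair the adjusted permutation p of r was 0.056 in females alone and 0.014 in males alone. Cyp4a31 and Cyp4a32 were not called in the MIN table, at r = 0.16 and an adjusted permutation p of 0.31, and reached 0.67 with MAX counts, in which shared reads can enter both genes. Members that share reads with a near copy can correlate through them, and the part of such reads was not tested.

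**Figure D4:**
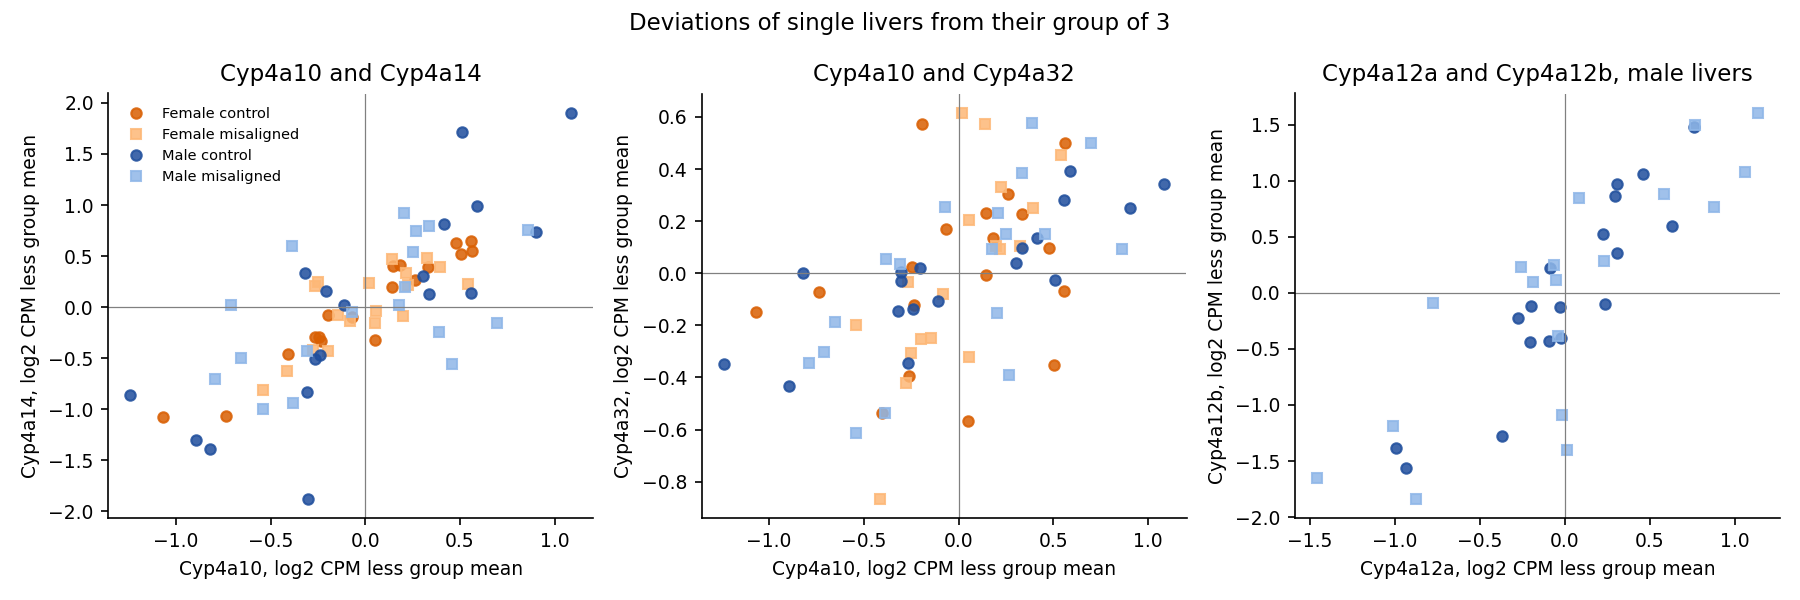
Deviation of single livers from the mean of their group on the log2 CPM scale, for 3 pairs of members, Cyp4a10 with Cyp4a14, Cyp4a10 with Cyp4a32, and in males alone Cyp4a12a with Cyp4a12b. Points are livers, coloured by sex and treatment, and the Cyp4a10 and Cyp4a14 points follow a line with r = 0.76 over 72 livers.

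Among the tested genes outside the Cyp4a group, with predicted genes and pseudogenes left out, those whose deviations were most like a member's were read from the same 72 livers, as a description without a test. For Cyp4a10 they were Cmbl (r = 0.82), Etfdh (0.81), which passes electrons from fatty acid oxidation to ubiquinone, and Pbld1 (0.81). For Cyp4a14 they were the cytochromes Cyp2c38 (0.76) and Cyp2c68 (0.75) and the protease inhibitor Serpinb1a (0.73). These 3 were also the nearest to Cyp4a14 in the 36 male livers alone (0.83, 0.81 and 0.78). In the 36 female livers alone the nearest were others, Acadm (0.91), Hadhb (0.89) and Ech1 (0.865). Outside the group, Cyp4a12a and Cyp4a12b were most like the major urinary protein gene Mup14 (0.60 and 0.80) and next most like Mup11 (0.59 and 0.76), followed by Mcm10 (0.58) for Cyp4a12a and Mup21 (0.75) for Cyp4a12b. Over the 72 livers the genes most like Cyp4a32 were Cyp2e1 (0.74), Acot12 (0.69) and Mterf4 (0.69). Those most like Cyp4a31 were Mpp1 (0.66), AI314278 (0.64) and Ppp2r5c (0.63). The Mup genes are a family of near copies, so their own counts are uncertain.

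Over the 24 group means, which carry the sex difference, the nearest genes outside the group were others. Cyp4a10 was most like Maob (r = 0.97), Akr1d1 (0.96) and Hpd (0.94), and Cyp4a14 most like the prolactin receptor gene Prlr (0.94), Cyp2c68 (0.94) and Afm (0.93). Cyp4a12a was nearest to Mup20, Eif2s3y and Ddx3y (0.995, 0.995 and 0.995) and Cyp4a12b to Eif2s3y, Cidea and Mup20 (0.99 each), which follow the split between males and females. Cyp4a31 was nearest to Smim6 (0.80), Trim24 (0.79) and Zfp715 (0.77), and Cyp4a32 to Slc25a47 (0.87), Lancl1 (0.87) and Tdo2 (0.87).

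The sex difference was also read in other genes of the same pathways. Of all 15066 genes, 32.2% were called in controls, 2353 higher and 2505 lower in females. Of 14 other Cyp4 genes 8 were tested, and in controls 1 was higher and 3 were lower in females, with a median log2 difference of 0.02 beside 0.01 for all genes. Those called were Cyp4f15 (0.27), Cyp4v3 (-0.41), Cyp4f17 (-0.37) and Cyp4f18 (-1.03). Of 35 other PPAR alpha targets, 4 were higher and 14 lower in females, with a median of -0.13. Among them the peroxisomal thioesterase genes Acot3 (3.05) and Acot4 (1.08) were higher, as Cyp4a10 and Cyp4a14 were, and the lipid droplet genes Cidec (-3.69) and Plin2 (-0.71) were lower.

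Ppara, the gene of the receptor itself, was at 0.03 ± 0.31 in controls (adjusted p 0.95 by edgeR) and at -1.06 ± 0.32 in misaligned mice (adjusted p 0.0069), where it averaged 27.0 ± 11.7 CPM in females and 53.0 ± 37.8 CPM in males (SD, n = 18). A call in misaligned mice alone does not show that the sex difference changed. The sex difference of the misalignment effect was called for 0 of 15066 genes by edgeR. Of 24 genes of omega and peroxisomal oxidation, in controls 4 were higher and 7 lower, with a median of -0.14, beside 32.2% of all genes called. Of these Abcd2, a peroxisomal transporter of fatty acyl-CoA, was higher (1.29), and Scp2 (-0.72), Hsd17b4 (-0.45) and Pex11a (-0.66) were lower. Of 34 other genes listed as sex-biased in liver, 20 were higher in control females and 10 lower, with a median of 1.20, beside the same 32.2%. Those with the smallest p were Mup20 (-6.95), Sult2a1 (13.42), Cux2 (6.65) and Cyp2d9 (-4.54), and that list was drawn up for its sex bias. The fitted value of Sult2a1 depends on the prior count, as control males held a mean of 0.031 CPM.

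Rhythms were called among PPAR alpha targets although none was among the Cyp4a genes. Of the 35 targets, 13 were rhythmic in control females, 11 in misaligned females, 10 in control males and 0 in misaligned males by edgeR, beside 11.4%, 7.23%, 10.0% and 0% of all genes. Of the same 35, 11 changed their rhythm with misalignment in males and 0 in females, beside 8.77% and 0.159% of all genes. Cpt1a, which admits fatty acids to mitochondria, had an adjusted p for rhythm of 1.3e-04 in control females and 1.7e-05 in control males. Acot3 and Acot4 had 5.6e-06 and 2.1e-05 in control males, where Cyp4a10 had 0.78 and Cyp4a14 0.67. Whether the rhythms of those targets differ from those of the Cyp4a genes was not tested.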

How the data were processed

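Per the labels' protocols, poly(A) RNA of whole liver was sequenced in pairs of 150 bp. STAR 2.6.0c and the build GRCm38 are named in the submitters' processing notes. The deposited files hold whole-number read counts per gene, exon or intron, sense to the gene. How the MIN and MAX versions resolve shared reads is not given in the sources used here. Each column was matched to its sample by the sample's title, and 0 columns were left over.

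The filter filterByExpr of edgeR, given the 24 groups, kept 15066 of 27846 genes of the sense MIN gene counts, which were scaled by TMM (factors 0.836 to 1.17). A robust quasi-likelihood model of edgeR 4.0.16 in R 4.3.3 with 24 group means (48 residual degrees of freedom) gave contrasts averaged over clock times and tests by clock time. A second model (60 residual degrees of freedom) gave rhythm tests, with 24 h cosine and sine terms for females and males of each treatment. Tests were 2-sided, p-values were adjusted by Benjamini and Hochberg over all genes tested, and the threshold was 0.05. Log2 CPM used a prior count of 2. Intron counts were summed per gene and tested the same way. Correlations used 100000 permutations within groups. The model was tested on simulated data.

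Total gene counts per library had a median of 12005221, and intervals at 95% cover counting error only. Gene models were those of GENCODE vM21 on GRCm38, aligned with Biopython 1.88, and figures used matplotlib 3.10.9. Named genes were all 6 members, the 3 genes most like each (for Cyp4a14 also in each sex alone and for the Cyp4a12 genes also in males alone), and up to 4 per list with the smallest p. Ppara was named as the gene of the receptor. Members and lists were chosen with earlier results of these data known. Alternatives were RLE factors, total counts, no filter, MAX counts, limma-voom (limma 3.58.1), DESeq2 1.42.0, fits of the compared libraries alone, a replicate block, and leaving out replicate numbers, clock times or libraries. Antisense and intergenic counts were not used. The list of PPAR and partner receptors as a whole is not reported here.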

Additional observations from a re-analysis of the deposited data

How the results depend on the processing

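The number of members called stayed within 1.5 times its first value under every alternative run except that 4 pairs of members were correlated in female livers alone, against 9 over all livers. Leaving out replicate numbers, clock times or single libraries gave 5 to 6 members called for the sex difference, both among controls and among misaligned mice. The main model did not pair livers by replicate number. Deviations of same-numbered livers correlated at -0.53 to 0.51 between treatments, with 10 of 36 pairs above 0.1, and at -0.32 to 0.45 between sexes, with 11 of 36 above 0.1. Differently numbered livers were not compared, so these values cannot show whether the numbers pair livers. With a replicate block the model called 5 members for the sex difference in controls, 6 in misaligned mice and 0 in every misalignment and rhythm test. Signs turned for Cyp4a32 with MAX counts, whose sex difference became 0.25 in controls, 0.13 in misaligned mice and 0.0185 in introns. The effect of misalignment on Cyp4a14 in males turned with limma-voom (0.025) and ran from -0.40 to 0.09 over the fits that left out livers, being 0.0592 without 16 h, 0.086 without replicate 2, 0.0212 without control replicate 2 of 0 h and 0.086 without control replicate 2 of 8 h. The cause was not tested. Cyp4a31 passed in controls with DESeq2 (adjusted p 0.046) and failed in misaligned mice with total counts (0.051) and no filter (0.079). Rhythm tests without single libraries were not run. Cyp4a12a and Cyp4a12b had too few female counts for rhythm or treatment to be read, and Cyp4a31 and Cyp4a32 rested on medians of 112 to 256 counts per library.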
